A study of Homo sapiens with 9 samples.

Results

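Transcripts of 9 coagulation and fibrinolysis genes were followed through 9 RNA-seq libraries of NB4 cells. They were taken by name from the gene column of both deposited tables: F3, THBD, TFPI, F13A1, PLAU, PLAUR, ANXA2, S100A10 and SERPINB2. Each name matched 1 of 35856 loci in the treatment table and 1 of 36119 in the knockout table. NB4 is an established line from a human acute promyelocytic leukaemia. It has the PML-RARA fusion and matures under retinoic acid (RA). The treatment set has 5 libraries, 1 for each 24 h treatment: MC_2580, RA 0.01 uM, RA 1 uM, MC_2580 + RA 0.01 uM (called the combination) and the vehicle DMSO. The series' design text calls MC_2580 an LSD1 inhibitor, LSD1 being a histone demethylase, and its dose is not in the labels used here. LSD1 KO cells and WT cells, all untreated, gave 2 libraries each in the knockout set. That table gives both KO libraries a single line name, so differences between this line and WT other than loss of LSD1 cannot be told apart from it, and no label says whether replicates were grown apart, so a p-value here covers only the spread between these libraries, which may be technical.

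Clotting starts when tissue factor, encoded by F3, meets factor VII at a membrane, and thrombomodulin (THBD) turns the thrombin that results towards activation of the anticoagulant protein C. Fibrin is dissolved by plasmin, which urokinase (PLAU) releases from plasminogen while bound to its receptor (PLAUR), and the complex of annexin A2 (ANXA2) with S100A10 assembles plasminogen and its activators at the cell surface. Leukaemic promyelocytes are known for both tissue factor and annexin A2, and acute promyelocytic leukaemia for bleeding that eases as RA is given. SERPINB2 encodes plasminogen activator inhibitor 2, TFPI the inhibitor of the tissue factor pathway, and F13A1 the A subunit of factor XIII, which crosslinks fibrin.

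Values are FPKM, fragments scaled to transcript length and library size. Between 11974 and 13365 loci per library reached 1 FPKM. Read totals were not used here. Judged by the lowest values at each locus length, 1 FPKM stood for 0.73 to 0.89 times as many reads in the treated libraries as in DMSO. Relative to WT 1 the figure was 1.02 for KO 1, 1.33 for KO 2 and 1.64 for WT 2. LSD1 is encoded by KDM1A, listed as AOF2, which stood at 14.0 and 16.8 FPKM in KO against 49.8 and 66.6 FPKM in WT, with no overlap (log2 difference -1.85, SE 0.23, limma adjusted p = 0.158). Of 6 promyelocyte markers, 5 were at or above 1 FPKM in every library (MPO, PRTN3, AZU1, CTSG and CD33), and ELANE was below it in all. None of 6 endothelial markers reached 1 FPKM in any library, nor did any of 7 megakaryocyte and platelet markers other than ITGA2B. These are bulk libraries, in which fewer cells making a transcript and less of it per cell cannot be told apart.

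Of the 9 genes, 7 reached 1 FPKM in at least 1 treatment library. TFPI and F13A1 did not reach it in any of the 9 libraries. TFPI was listed at 0.0448 FPKM with MC_2580, at 0.0224 FPKM in RA 1 uM and at 0 in RA 0.01 uM, the combination and DMSO. In the knockout set it stood at 0.106 and 0 FPKM in KO and at 0.0503 and 0.0056 FPKM in WT. F13A1 lay between 0 and 0.0374 FPKM in the treated libraries, with 0.0333 FPKM in DMSO, and at 0.0169 and 0.0455 FPKM in KO against 0.0953 and 0.0678 FPKM in WT. Neither gene is compared further.

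RefSeq windows of the 250 bases before the gene start (build GRCh38.p14) were found for 7 of the 9 genes. Those of F3, ANXA2, PLAUR and SERPINB2 are shown because all of them differed between treatment libraries and all hold the letters TGANTCA, which are in capitals. This pattern, called AP-1 here, is looser than the AP-1 consensus, which has C or G in place of N. Each is written 5′ to 3′ on the strand of the gene.
F3 promoter, chr1:94541760-94542009, minus strand: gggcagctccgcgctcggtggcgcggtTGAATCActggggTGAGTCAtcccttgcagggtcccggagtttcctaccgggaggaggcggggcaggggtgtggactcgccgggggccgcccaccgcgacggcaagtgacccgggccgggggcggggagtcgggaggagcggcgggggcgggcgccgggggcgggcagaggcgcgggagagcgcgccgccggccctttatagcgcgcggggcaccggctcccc
ANXA2 promoter, chr15:60397987-60398236, minus strand: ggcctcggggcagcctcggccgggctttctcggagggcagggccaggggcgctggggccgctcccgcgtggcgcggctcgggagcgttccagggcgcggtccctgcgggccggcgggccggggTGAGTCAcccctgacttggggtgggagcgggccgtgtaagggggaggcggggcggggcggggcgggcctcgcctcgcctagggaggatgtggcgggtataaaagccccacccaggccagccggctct
PLAUR promoter, chr19:43670170-43670419, minus strand: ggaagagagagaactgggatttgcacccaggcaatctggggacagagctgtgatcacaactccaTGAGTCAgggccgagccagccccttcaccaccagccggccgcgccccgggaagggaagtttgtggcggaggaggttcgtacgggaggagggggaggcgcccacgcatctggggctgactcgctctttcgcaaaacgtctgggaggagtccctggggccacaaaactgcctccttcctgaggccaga
SERPINB2 promoter, chr18:63887455-63887704, plus strand: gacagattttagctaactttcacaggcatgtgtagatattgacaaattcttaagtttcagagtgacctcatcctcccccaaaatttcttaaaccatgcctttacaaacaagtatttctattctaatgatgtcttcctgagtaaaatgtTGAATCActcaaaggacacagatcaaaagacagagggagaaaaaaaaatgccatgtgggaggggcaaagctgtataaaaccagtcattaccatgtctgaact

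The match begins 223 and 210 bases before the start in F3, 127 in ANXA2, 186 in PLAUR and 102 in SERPINB2. The match in SERPINB2 and the one at 223 in F3 read TGAATCA, which is not the consensus, and the others read TGAGTCA, which is. These 4 of 7 windows compare with 6.6% of 27305 RefSeq promoter windows of the same length. AP-1 was 1 of 6 motifs searched on both strands. No window was found for THBD or PLAU, so none of these motifs was searched for in their promoters. The GC box GGGCGG was in 3 of the 7 windows (4 matches in F3, 3 that overlap in ANXA2 and 1 in S100A10), against 42.3% of all. TATAAA was in 3 (F3, on the opposite strand, ANXA2 and SERPINB2), against 11.1% of all, and the retinoid receptor half-site AGGTCA in 2 (SERPINB2 and TFPI), against 12.1%. The ETS letters GAGGAA were in TFPI alone (23.4% of all windows), and the GFI1 core AAATCA in none (11.7%). The windows were rich in G and C in F3 and ANXA2 (78.0% each) and poor in SERPINB2 (37.2%), with a median of 58.0% over all windows. A match shows the letters and not a bound site.

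The treatment comparisons set 1 library against another, so no replicate checks them and no p-value is given. A gene is called higher or lower where log2((FPKM + 1)/(FPKM + 1)) passes 2-fold and at least 1 of the libraries compared reaches 1 FPKM. Adding 1 FPKM understates the differences of low genes. By this rule, RA 0.01 uM against DMSO had 2 members higher (THBD and PLAU) and 3 lower (F3, ANXA2 and PLAUR) of 6 tested, beside 4.87% and 2.78% of 9705 protein-coding genes. RA 1 uM had 3 higher and 1 lower of 7 tested (6.5% and 2.7% of protein-coding genes). The combination against DMSO had 3 higher and 0 lower of 7 (9.36% and 3.42%). SERPINB2, under 1 FPKM in DMSO, was tested in RA 1 uM and the combination only through the treated library. MC_2580 alone had 1 higher and 0 lower of 6 (0.741% and 0.0104%). The same rule called 0 of 6 members between KO 1 and KO 2 and 0 of 6 between WT 1 and WT 2, where it marked 2.3% and 2.66% of protein-coding genes as higher and 1.12% and 1.13% as lower. The median log2 difference over the members tested was 0.35 with MC_2580, -1.0 in RA 0.01 uM, -0.63 in RA 1 uM and 0.21 in the combination. Over protein-coding genes it was -0.02, -0.06, -0.03 and -0.02 in the same comparisons.

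**Figure D1:**
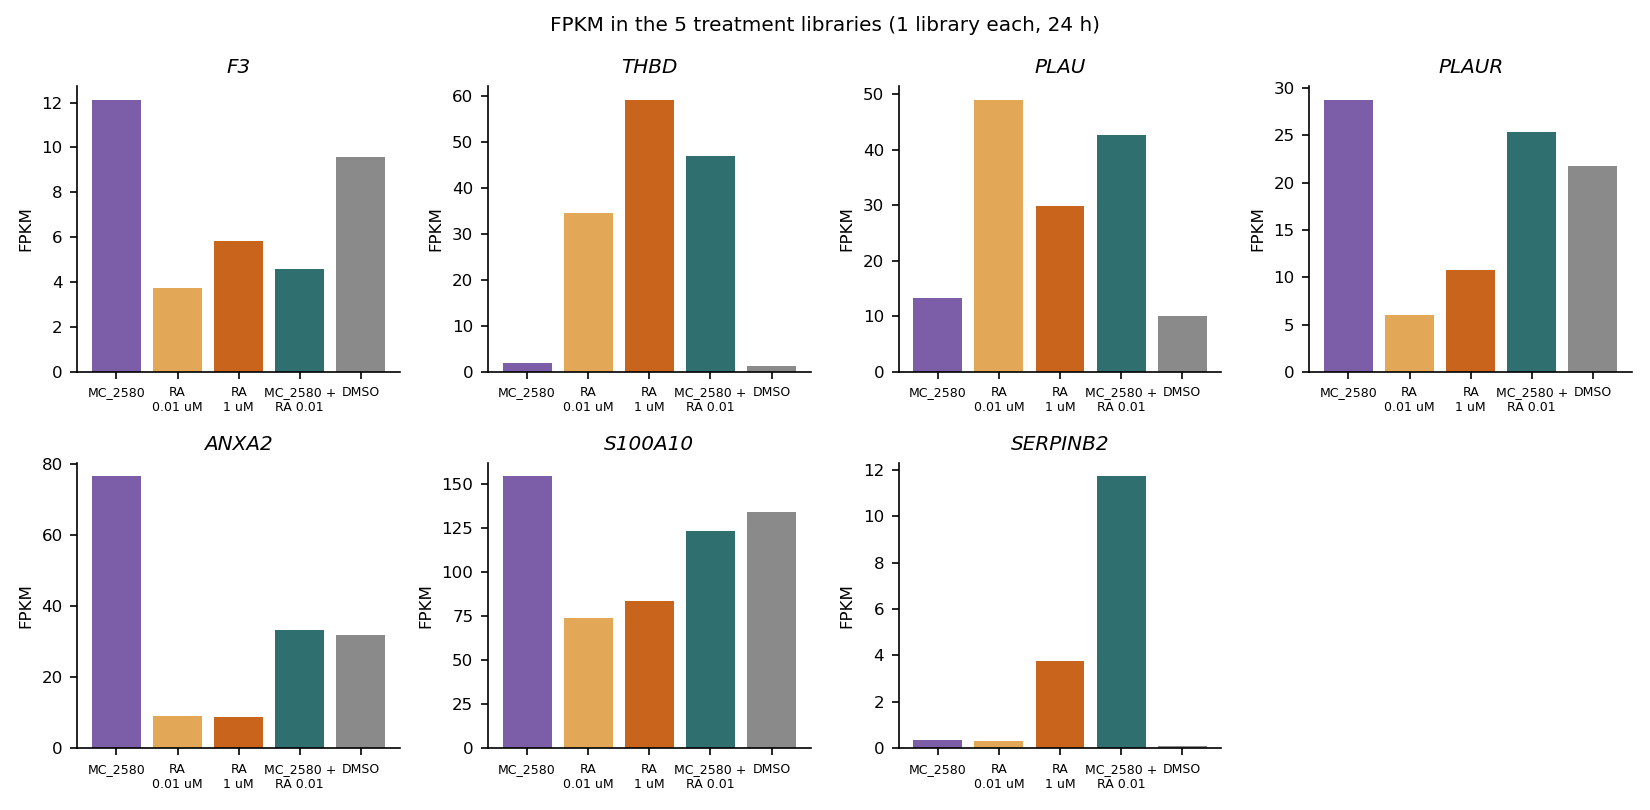
FPKM (y axis, from 0) of the 7 genes that reached 1 FPKM, in 1 library per treatment (x axis; bars have no error because there are no replicates). THBD stands at 34.7 to 59.3 FPKM in the 3 libraries with RA, PLAUR and ANXA2 are lowest in the libraries with RA alone, and SERPINB2 is highest in the combination at 11.7 FPKM.

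Among the genes of the clotting pathway, F3 was lower in the libraries with RA and THBD far higher. F3 (chromosome 1, 94767461 to 94779903, build hg18) stood at 12.1 FPKM with MC_2580, 3.75 FPKM in RA 0.01 uM, 5.82 FPKM in RA 1 uM and 4.58 FPKM in the combination, against 9.56 FPKM in DMSO. All 3 libraries with RA lay below both without it. The log2 difference from DMSO was -1.15 in RA 0.01 uM, which passed 2-fold, -0.63 in RA 1 uM and -0.92 in the combination, which did not, and 0.31 with MC_2580. With a pseudocount of 5 FPKM the value for RA 0.01 uM was -0.73, which is no call. THBD (chromosome 20, 22974270 to 22978378) stood at 1.87 FPKM with MC_2580, 34.7 FPKM in RA 0.01 uM, 59.3 FPKM in RA 1 uM and 47.0 FPKM in the combination, against 1.303 FPKM in DMSO. It was 15.5-fold higher in RA 0.01 uM, 26.2-fold in RA 1 uM and 20.9-fold in the combination on the FPKM + 1 scale. Of protein-coding genes, 99.6%, 99.7% and 99.4% lay below it in those comparisons. With MC_2580 alone the log2 difference was 0.32, and adding MC_2580 to RA 0.01 uM gave 0.43, both under 2-fold. The ratio of THBD to F3 within a library was 0.154 with MC_2580, 9.24 in RA 0.01 uM, 10.2 in RA 1 uM and 10.3 in the combination, against 0.136 in DMSO.

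Urokinase and its receptor differed from DMSO in opposite directions in RA. PLAU (chromosome 10, 75339733 to 75352541) stood at 13.2 FPKM with MC_2580, 49.1 FPKM in RA 0.01 uM, 29.8 FPKM in RA 1 uM and 42.6 FPKM in the combination, against 9.98 FPKM in DMSO. It was higher than in DMSO in all 3 libraries with RA, by 2.19, 1.49 and 1.99 on the log2 scale. The higher RA dose held less of it than the lower one, a log2 difference of -0.70, which is under 2-fold, though only 0.46% of protein-coding genes lay further down in that comparison. PLAUR (chromosome 19, 48842111 to 48866342) stood at 28.8 FPKM with MC_2580, 6.05 FPKM in RA 0.01 uM, 10.7 FPKM in RA 1 uM and 25.4 FPKM in the combination, against 21.8 FPKM in DMSO. The libraries with RA alone were the low ones. The log2 difference from DMSO was -1.69 in RA 0.01 uM, -0.96 in RA 1 uM and 0.21 in the combination. PLAUR overlaps a locus named AC006953.1-1, at no more than 1.09 FPKM in any library, and PLAU overlaps C10orf55, at 0.31 to 1.2 FPKM in the treated libraries and 0.24 FPKM in DMSO. The kit named in the labels is not stated to keep strand, so reads in the shared stretch cannot be assigned.

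Both subunit genes of the annexin A2 complex were lower in the RA doses than in DMSO, ANXA2 past 2-fold and S100A10 short of it. ANXA2 (chromosome 15, 58426625 to 58477477) stood at 76.6 FPKM with MC_2580, 9.15 FPKM in RA 0.01 uM, 8.84 FPKM in RA 1 uM and 33.3 FPKM in the combination, against 31.9 FPKM in DMSO. MC_2580 alone was the high library and both RA doses the low ones. It was the member called higher with MC_2580 alone, 2.36-fold, with 99.6% of protein-coding genes below it, and it was 3.24-fold and 3.34-fold lower in RA 0.01 uM and RA 1 uM. S100A10 (chromosome 1, 150222011 to 150233338) stood at 154.7 FPKM with MC_2580, 73.8 FPKM in RA 0.01 uM, 83.6 FPKM in RA 1 uM and 123.4 FPKM in the combination, against 134.4 FPKM in DMSO. Both RA doses were again the low libraries, with 4.07% and 6.2% of protein-coding genes further down in RA 0.01 uM and RA 1 uM, and no difference from DMSO passed 2-fold. The log2 difference was 0.20 with MC_2580, -0.86 in RA 0.01 uM, -0.68 in RA 1 uM and -0.12 in the combination. The ratio of ANXA2 to S100A10 was 0.495 with MC_2580, 0.124 in RA 0.01 uM, 0.106 in RA 1 uM and 0.27 in the combination, against 0.237 in DMSO.

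SERPINB2, the inhibitor of urokinase (chromosome 18, 59689906 to 59722100), stood at 0.345 FPKM with MC_2580, 0.333 FPKM in RA 0.01 uM, 3.75 FPKM in RA 1 uM and 11.7 FPKM in the combination, against 0.103 FPKM in DMSO. It was under 1 FPKM with MC_2580 alone, in RA 0.01 uM and in DMSO, and above it in RA 1 uM and the combination. Between the RA doses it was therefore tested only through RA 1 uM, where it is the higher. On the FPKM + 1 scale it was 4.30-fold higher in RA 1 uM and 11.5-fold higher in the combination than in DMSO. It was the member called between the RA doses, 3.56-fold higher in RA 1 uM than in RA 0.01 uM (1 of 7 members higher and 0 lower, beside 0.753% and 0.178% of 9566 protein-coding genes). With a pseudocount of 5 FPKM neither call in RA 1 uM was made, at log2 0.78 against DMSO and 0.71 against RA 0.01 uM.

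**Figure D2:**
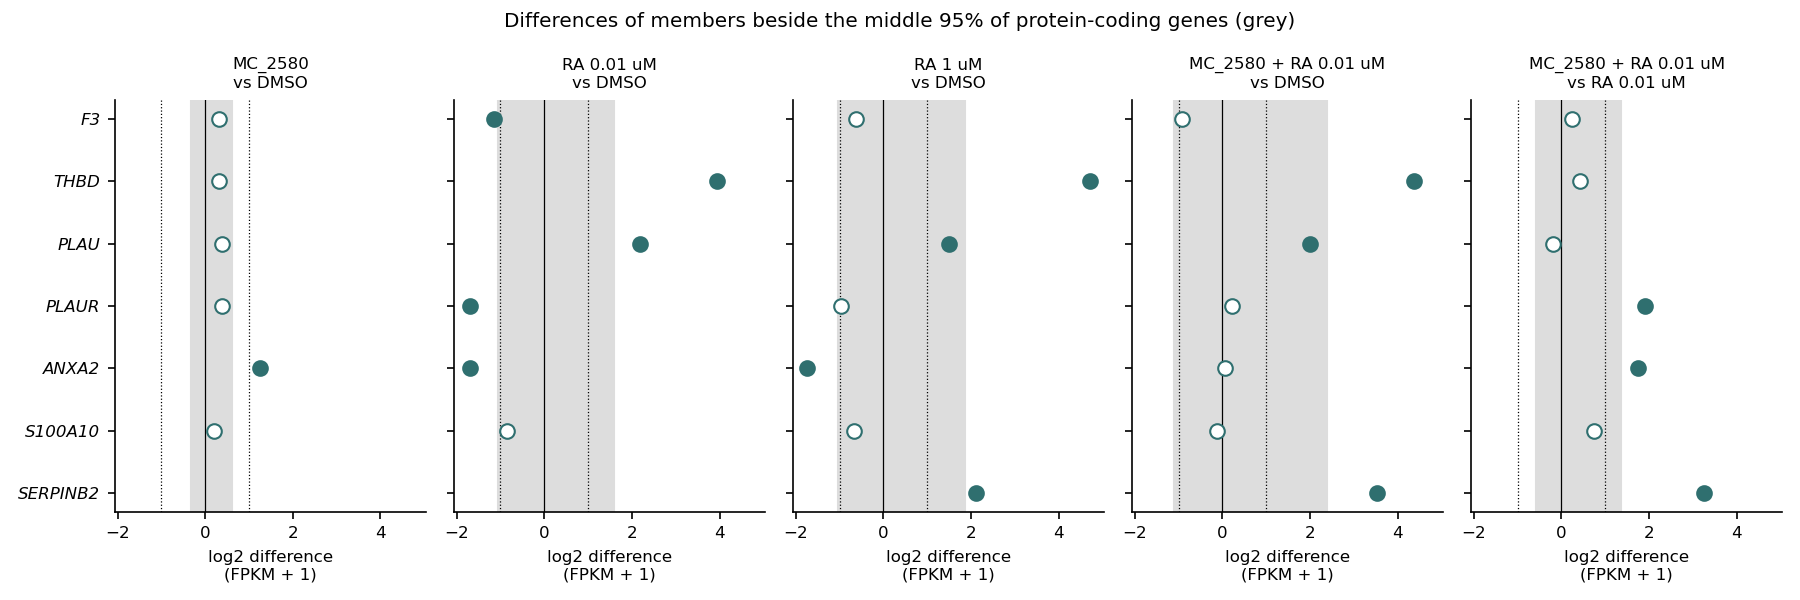
Log2 difference on the FPKM + 1 scale (x axis) of each member (y axis) in 5 comparisons, filled where it passes 2-fold (dotted lines) and left out where both libraries are under 1 FPKM. Grey spans the middle 95% of protein-coding genes, and THBD lies beyond it in all 3 libraries with RA set against DMSO.

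Adding MC_2580 to RA 0.01 uM was accompanied by higher ANXA2, PLAUR and SERPINB2, while F3, THBD, PLAU and S100A10 did not pass 2-fold. In that comparison 3 of 7 members were higher and 0 lower, beside 4.61% and 0.358% of 9787 protein-coding genes. SERPINB2, under 1 FPKM in RA 0.01 uM and with MC_2580, was tested against either of them only through the combination, where it is high. ANXA2 was 3.38-fold higher in the combination than in RA 0.01 uM, PLAUR 3.74-fold and SERPINB2 9.54-fold. The same 3 genes were above RA 1 uM in the combination, 3.49-fold for ANXA2, 2.25-fold for PLAUR and 2.68-fold for SERPINB2 (3 of 7 higher and 0 lower, beside 3.35% and 0.481%). With a pseudocount of 5 FPKM those of PLAUR (log2 0.95) and SERPINB2 (log2 0.94) against RA 1 uM fell short of 2-fold. These comparisons, and those with DMSO, share the combination library, so the values only stand side by side. Set against MC_2580 alone, the combination had THBD, PLAU and SERPINB2 higher and F3 and ANXA2 lower (3 and 2 of 7, beside 7.87% and 3.32%), with log2 differences of 4.07, 1.62, 3.24, -1.23 and -1.18. That of F3 was -0.84 with a pseudocount of 5 FPKM.

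The combination was also set against the sum of the log2 differences of MC_2580 and RA 0.01 uM from DMSO. It covers genes for which at least 1 library of each single-agent comparison reached 1 FPKM, which leaves 6 members. SERPINB2 is not among them, since it was under 1 FPKM with MC_2580, in RA 0.01 uM and in DMSO. PLAUR lay 1.51 above the sum. Over 9372 protein-coding genes the middle 95% of this deviation ran from -0.58 to 0.90, so PLAUR was outside it. ANXA2 (0.52), S100A10 (0.53), THBD (0.11) and F3 (-0.08) lay inside, as did PLAU at -0.57, close to the lower edge. The DMSO library enters every term of this deviation, which has no replicate check.

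**Figure D3:**
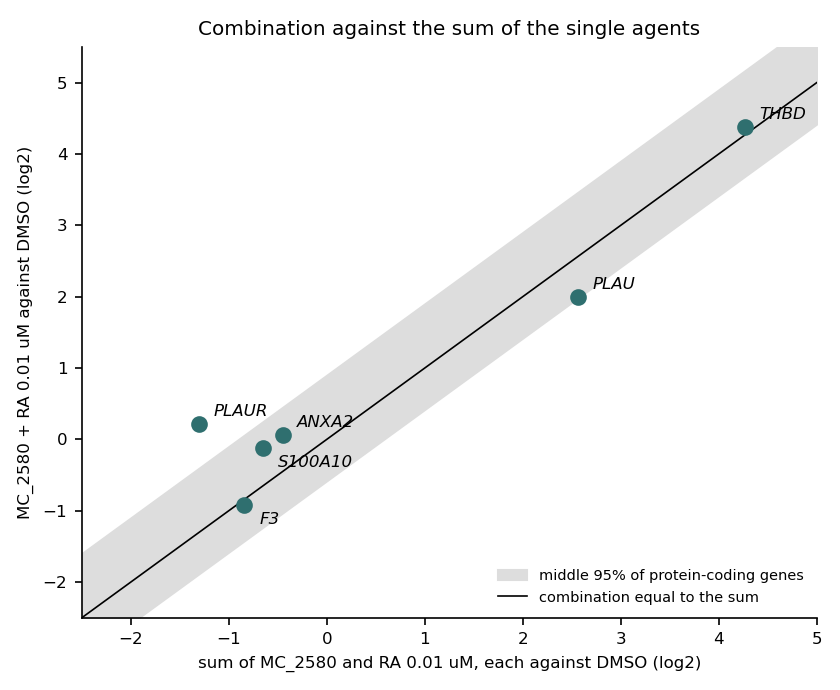
Log2 difference of the combination from DMSO (y axis) against the sum of the log2 differences of MC_2580 and RA 0.01 uM from DMSO (x axis) for 6 members, with the line of equality and, in grey, the middle 95% of protein-coding genes around it. PLAUR lies above the grey band, 1.51 from the line.

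LSD1 KO cells had less F3 and more ANXA2, PLAUR and PLAU than WT cells in both libraries, but no member passed the test. The fit held no term for replicate number. In limma on log2(FPKM + 1), 8 loci (0.0608% of 13156) were higher and 7 (0.0532%) lower at an adjusted p of 0.05, and 0 of the 6 members that passed the filter of a group mean of 1 FPKM were among them. At an unadjusted p under 0.05 there were 945 loci. The KO libraries lay above both WT libraries for 4 of these 6 members (18.7% of protein-coding genes tested) and below them for 1 (16.9%). F3 stood at 4.90 and 4.34 FPKM in KO against 8.89 and 11.6 FPKM in WT, with no overlap. The log2 difference was -0.99 (SE 0.20, limma adjusted p = 0.386). ANXA2 stood at 222.9 and 292.8 FPKM in KO against 98.1 and 121.5 FPKM in WT, with no overlap. The log2 difference was 1.22 (SE 0.25, limma adjusted p = 0.391).

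PLAUR stood at 40.2 and 30.0 FPKM in KO against 22.6 and 12.1 FPKM in WT, a log2 difference of 1.03 (SE 0.37, limma adjusted p = 0.711). The groups did not overlap, and the difference was 0.60 without WT 2 and 1.45 without WT 1. PLAU stood at 10.83 and 10.81 FPKM in KO against 8.04 and 7.04 FPKM in WT, with no overlap. It averaged 10.8 ± 0.0173 FPKM in KO and 7.54 ± 0.702 FPKM in WT (SD, n = 2 each), a log2 difference of 0.47 (SE 0.15, limma adjusted p = 0.660). S100A10 overlapped between the groups, at 167.4 and 124.0 FPKM in KO against 144.7 and 95.9 FPKM in WT (log2 difference 0.29, SE 0.31, limma adjusted p = 0.904), and its difference was -0.005 without WT 2. For S100A10 and PLAUR, replicate 1 was above replicate 2 in both groups, and KO was above WT at each replicate number. Leaving out 1 library therefore also shifts the balance of replicate numbers between the groups. THBD stood at 1.32 and 1.35 FPKM in KO and 1.29 and 1.07 FPKM in WT (log2 difference 0.10, SE 0.24, limma adjusted p = 0.970), a difference that turned to -0.009 under quantile normalization. SERPINB2 stayed under the filter, at 0.509 and 0.294 FPKM in KO against 0.0637 and 0.216 FPKM in WT. Set beside MC_2580 against DMSO, ANXA2 had a log2 difference of 1.22 in KO and 1.24 with MC_2580, while F3 had -0.99 in KO and 0.31 with MC_2580. The difference between knockout and inhibitor was not tested, since the tables were scaled separately and the inhibitor has 1 library.

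**Figure D4:**
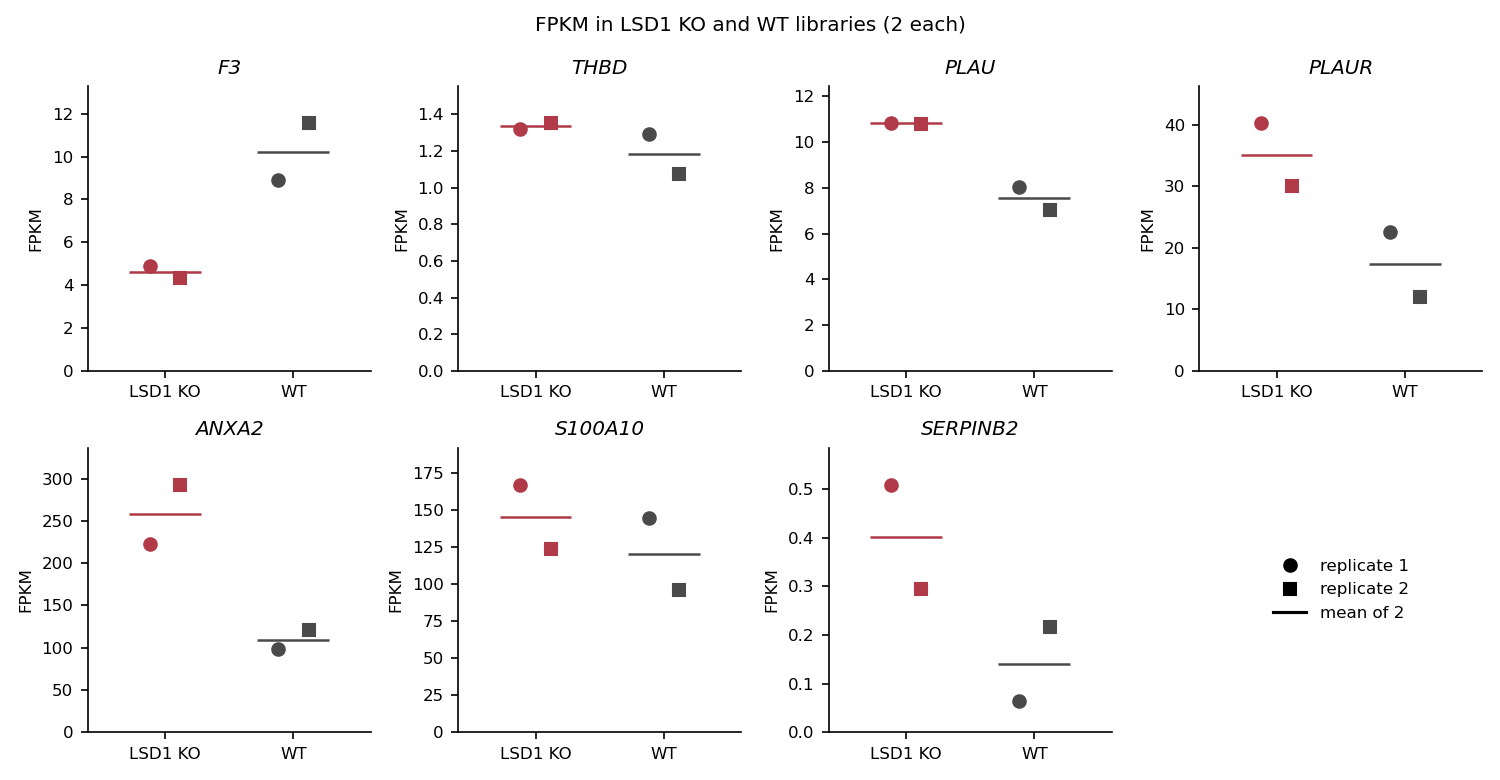
FPKM (y axis, from 0) of 7 members in 2 LSD1 KO and 2 WT libraries (x axis); circles are replicate 1, squares replicate 2 and lines the mean. F3 is lower in both KO libraries and ANXA2, PLAUR and PLAU are higher in both, while S100A10 overlaps; no member passed limma's adjusted p.

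ANXA2 has processed pseudogenes close to it in sequence, so its level is uncertain wherever reads were split among them, and the tables differ in this. ANXA2P2 stood at 203 FPKM with MC_2580, 26.5 FPKM in RA 0.01 uM, 24.0 FPKM in RA 1 uM and 85.0 FPKM in the combination, against 81.7 FPKM in DMSO. In the knockout table it stood at 0.195 and 0.301 FPKM in KO and 0.231 and 0.139 FPKM in WT. The ratio of ANXA2P2 to ANXA2 was thus 2.55 to 2.90 in the treatment libraries and at most 0.00236 in the knockout set. ANXA2P2 had the same direction as ANXA2 in each comparison with DMSO that passed 2-fold (log2 1.3 with MC_2580, -1.59 in RA 0.01 uM and -1.73 in RA 1 uM), and 1.64 for the combination against RA 0.01 uM. Where reads are shared between the copies their directions go together, so this is no separate check of the ANXA2 differences. The level of ANXA2 in the treatment table, and its ratio to S100A10, therefore cannot be set against those of the knockout table.

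**Figure D5:**
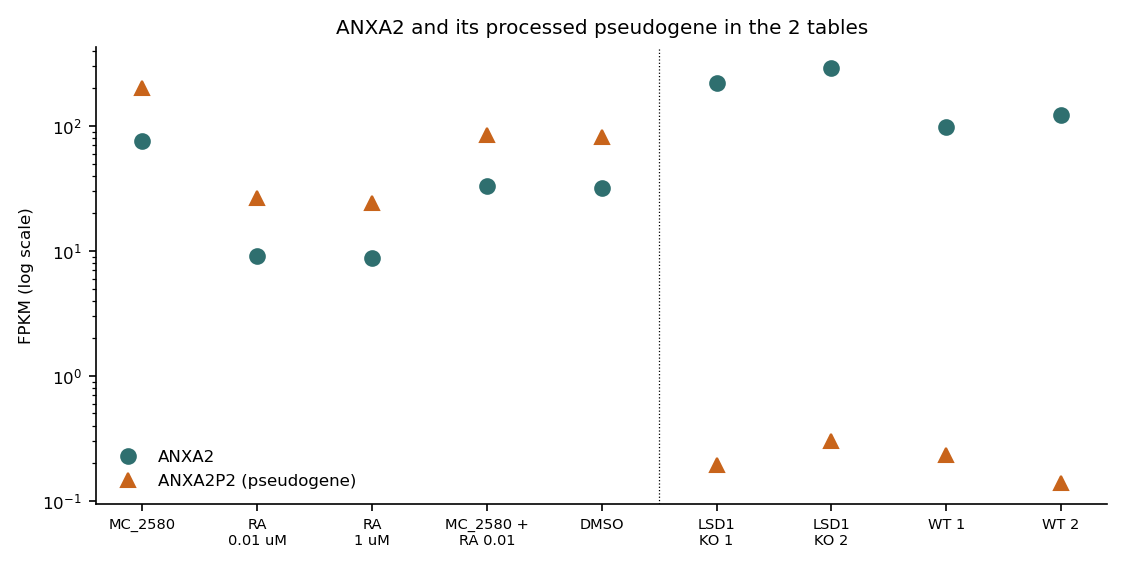
FPKM (y axis, log scale) of ANXA2 (circles) and ANXA2P2 (triangles) in the 5 treatment libraries and the 4 libraries of the knockout set (x axis; dotted line between the tables). The pseudogene stands above ANXA2 in every treatment library and at or below 0.301 FPKM in every library of the knockout set.

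The other genes of these pathways were counted from lists. Of 28 genes of clotting factors and their inhibitors 6 could be tested in the comparisons of RA 0.01 uM, RA 1 uM and the combination with DMSO, and the calls among them were THBD and F3 alone, both members. Most factors of plasma were under 1 FPKM in every library, among them the fibrinogen chains and factors VII, IX, X and XI. Of 17 fibrinolysis genes 10 could be tested in the combination against DMSO, where 4 were higher and 0 lower, beside 9.36% and 3.42% of protein-coding genes. The median log2 difference was 0.32, against -0.02 over protein-coding genes. Those higher included the members PLAU and SERPINB2, and THBS1, thrombospondin 1 (14.5 FPKM in the combination, 0.611 FPKM in DMSO). SERPINB2 and THBS1 were under 1 FPKM in DMSO, so they were tested against it only through the treated library. In the combination against RA 0.01 uM 5 of 10 were higher and 0 lower, beside 4.61% and 0.358% of all protein-coding genes tested, with a median of 1.25 against 0.03. SERPINB2 was among those higher and was again tested only through the combination. THBS1 stood at 1.16 FPKM in RA 0.01 uM and at 10.2 FPKM in RA 1 uM. With MC_2580 alone 2 of 8 fibrinolysis genes were higher and 0 lower, beside 0.741% and 0.0104% of protein-coding genes. They were ANXA2 and THBS1 (3.37 FPKM with MC_2580, 0.611 FPKM in DMSO). In LSD1 KO against WT 0 of 6 clotting genes and 0 of 9 fibrinolysis genes passed in limma, with median log2 differences of 0.10 and 0.29 against -0.02.

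Some markers of other cells also differed between the treatment libraries. Of the monocyte and macrophage markers, CD14 stood at 3.03 FPKM in the combination and at most 0.221 FPKM in MC_2580, RA 0.01 uM and DMSO, and its value in RA 1 uM is missing. CSF1R stood at 7.49 FPKM with MC_2580, 12.5 FPKM in RA 0.01 uM, 6.84 FPKM in RA 1 uM and 23.1 FPKM in the combination, and its value in DMSO is missing. CD163 and MSR1 were at or near 0 in every library. In the knockout set CSF1R stood at 3.56 and 2.45 FPKM in KO against 2.88 and 1.92 FPKM in WT, and CD14 at 0.133 FPKM or less in every library. The part of these markers in the levels of SERPINB2, THBD and PLAUR was not tested. The promyelocyte markers differed among themselves: MPO stood at 6518 FPKM with MC_2580 and 2454 to 2873 FPKM in the libraries with RA, against 5301 FPKM in DMSO, while PRTN3 stood at 219.4 FPKM with MC_2580 and 454.1 to 965.8 FPKM in the libraries with RA, against 177.8 FPKM in DMSO. Over the 5 tested, 1 was higher (PRTN3) and 1 lower (CTSG) in RA 0.01 uM than in DMSO, beside 4.87% and 2.78% of protein-coding genes. The median log2 difference was 0.32. CTSG stood at 10.3 FPKM in RA 0.01 uM against 58.6 FPKM in DMSO, while MPO, at a log2 difference of -0.98, fell short of 2-fold. Of 6 fibroblast markers 1 reached 1 FPKM, COL1A1 in RA 1 uM at 1.18 FPKM.

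For each member called against DMSO, the protein-coding genes with the most similar log2 differences over the 4 treated libraries were ranked by root mean square distance. The 8134 genes ranked reached 5 FPKM in a treatment library. For THBD these were HIC1 (distance 0.21), PLAAT4 (RARRES3 in the table, 0.29) and IFI30 (0.31). HIC1 stood at 0.22 FPKM with MC_2580, 16.7 FPKM in RA 0.01 uM, 35.0 FPKM in RA 1 uM and 25.5 FPKM in the combination, against 0.107 FPKM in DMSO. For PLAU they were PLK3 (0.12), CXXC5 (0.14) and GSE1 (KIAA0182 in the table, 0.23), for F3 ASMTL, NAB2 and C11orf24 (0.17 to 0.18), and for SERPINB2 EPSTI1, PALLD and NLRP12 (NALP12 in the table, 0.36 to 0.40). For ANXA2 they included RNF130 (0.28) and RTN4RL2 (0.30), and for PLAUR they were DLL1 (0.14), CYP1B1 (0.16) and IL17RA (0.16). DLL1, a Notch ligand, stood at 14.6 FPKM with MC_2580, 2.49 FPKM in RA 0.01 uM, 3.8 FPKM in RA 1 uM and 11.5 FPKM in the combination, against 9.37 FPKM in DMSO. The distance covers 4 differences that share the DMSO library.

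The authors' deposited table marks each test of 1 library against another as significant or not, and the shares of protein-coding genes it marks in either direction are given beside its calls of members. Against DMSO, the authors' deposited table marks 0 members for MC_2580 (0.721% of protein-coding genes), and 4 for RA 0.01 uM, THBD, PLAU, ANXA2 and PLAUR (5.84%). It marks 4 for RA 1 uM in the authors' deposited table, THBD, PLAU, ANXA2 and SERPINB2 (6.62%), and 3 for the combination, THBD, PLAU and SERPINB2 (8.65%). Set against RA 0.01 uM, the combination has ANXA2, PLAUR and SERPINB2 marked in the authors' deposited table (3.29%). Set against MC_2580 it has THBD, PLAU and SERPINB2 (7.51%), and against RA 1 uM it has ANXA2 (2.61%) in the authors' deposited table. Between the RA doses SERPINB2 alone is marked in the authors' deposited table (0.733%). F3 is marked in none of these 8 comparisons, and no member is marked in the authors' deposited table for KO 1 against WT 1 or for KO 2 against WT 2.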

How the data were processed

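RNA-seq of NB4 cells was taken from 2 deposited tables, whose values are FPKM in Cuffdiff layout per the file headers. The submitters' processing notes name TopHat 1.3.1 and TopHat2 2.0.10, CASAVA 1.8, Cufflinks, Cuffdiff and hg18 without a role or order. The annotation and the scaling are not stated in what was used here. The authors also deposited a yes or no call per test, a category with no unit.

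The 0.001 FPKM present in every knockout value was subtracted. Failed tests, listed at 0, were set to missing (1039 treatment loci lack at least 1 library), and for 202 treatment values listed at 0 in some pairs only, the value above 0 was kept. Symbols were matched to RefSeq names and synonyms, which left 17336 and 17318 protein-coding genes with 1 locus in the treatment and knockout tables. Locus starts were read as counted from 0 (of 393 miRNA loci, 39.9% had the length end minus start and 0% that plus 1), and 1 was added.

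For KO against WT, limma 3.58.1 with a mean trend (R 4.3.3) was run on log2(FPKM + 1) over all loci whose mean in either group was 1 FPKM or more, adjusted by Benjamini and Hochberg, with 0.05 as the limit. Treatments were compared by size, at 2-fold. Both were tested on simulated data. The alternatives tried were pseudocounts of 0.1 and 5, other low-value filters, quantile scaling, a block for the replicate number, each library left out, protein-coding genes only, 4-fold, differences rescaled to a median of 0, and the calls the authors deposited. Genes named are the members, KDM1A, markers, list genes called in a comparison, and the 3 genes most like each member called. Some genes that this rule or the marker lists would name are not reported here. The members and lists were chosen with earlier results of these data known. Tables were handled in Python 3.11.15 (pandas 2.3.3, numpy 2.4.6) and drawn with matplotlib 3.10.9.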

Additional observations from a re-analysis of the deposited data

Results flagged for a closer look

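PLAU differed in sign between the effect of MC_2580 with RA 0.01 uM and without it. Its log2 difference was -0.20 for the combination against RA 0.01 uM and 0.38 for MC_2580 against DMSO. Each value rests on 1 library against another, both are under 2-fold, and the difference between them was not tested.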

How the results depend on the processing

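In LSD1 KO against WT, 0 members passed in limma under every alternative run, and 0 in the authors' deposited calls. The count of loci past the threshold was 15 and depended on the settings: 38 with a pseudocount of 0.1, 7 where a mean of 5 FPKM was asked for and 59 over protein-coding genes alone. It was 0 with a pseudocount of 5 (926 at an unadjusted p under 0.05), 0 without a filter (1720), 0 with the replicate block (3198) and 0 to 0 when any 1 library was left out (654 to 801). The authors' deposited calls were 117 and 96. Replicate numbers are not said to mark a pairing, though the authors' deposited calls compare same-numbered libraries. Deviations of same-numbered libraries had a correlation of 0.211 over all loci and 0.855 over protein-coding genes. The block changed no call of a member but narrowed the SE. For ANXA2 it went from 0.25 to 0.08, for PLAUR from 0.37 to 0.15 and for S100A10 from 0.31 to 0.09. For PLAU it went from 0.15 to 0.08, for F3 from 0.20 to 0.17 and for THBD from 0.24 to 0.17. With the block, limma adjusted p ran from 0.142 (ANXA2) to 0.731 (THBD). With 1 library left out, S100A10 ran from -0.005 (without WT replicate 2, a reversed sign) to 0.582, and THBD turned to -0.009 with quantile normalization. Of 8 treatment comparisons, the members called at 4-fold, with the share of protein-coding genes past 4-fold in either direction, were 0 for MC_2580 (0.0835%), 2 for RA 0.01 uM (2.07%), 2 for RA 1 uM (2.44%) and 2 for the combination (3.88%) against DMSO. For the combination they were 1 against RA 0.01 uM (1.16%), 2 against MC_2580 (3.18%) and 0 against RA 1 uM (0.686%), and between the RA doses 0 (0.0941%). A pseudocount of 5 gave 0 between the RA doses (0.272%) and 1 where the combination was set against RA 1 uM (1.66%). The authors called 0 for MC_2580 against DMSO, 3 for the combination against MC_2580 and 1 against RA 1 uM. Of single treatment values 208 kept their side of 2-fold and 8 crossed it (F3, PLAUR and SERPINB2, by pseudocount). The cause was not tested. Without read totals or replicates, the counting error of the treatment values cannot be given.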

Other observations

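Genes that act beside these members were counted too. Of 10 partners of the urokinase receptor, 7 were tested in the combination against DMSO, of which 4 were higher and 0 lower, beside 9.36% and 3.42% of all protein-coding genes tested, with a median log2 difference of 2.18 against -0.02 over protein-coding genes. They were ITGAM and ITGB2, the chains of the integrin Mac-1 (136.1 and 416.0 FPKM in the combination, 2.68 and 60.5 FPKM in DMSO), and the formyl peptide receptors FPR1 and FPR2 (3.67 and 6.53 FPKM in the combination, 0.0307 and 0.106 FPKM in DMSO). FPR1 and FPR2 were under 1 FPKM in DMSO, so they were tested only through the combination, where they are high. The median of 2.18 is the value of FPR1 itself and rests on that filter. In RA 0.01 uM alone, where PLAUR was lower than in DMSO, ITGAM stood at 22.9 FPKM and ITGB2 at 280.4 FPKM.

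Of 11 annexin genes found, 7, 7 and 8 could be tested against DMSO in MC_2580, RA 0.01 uM and RA 1 uM. ANXA2 was the one called, higher with MC_2580 (0.741% of protein-coding genes) and lower in RA 0.01 uM (2.78%) and RA 1 uM (2.7%). ANXA5, whose protein binds phosphatidylserine and slows clotting, stood at 58.0 FPKM with MC_2580, 25.9 FPKM in RA 0.01 uM, 35.7 FPKM in RA 1 uM and 57.1 FPKM in the combination, against 34.5 FPKM in DMSO. It passed 2-fold in the combination against RA 0.01 uM, with a log2 difference of 1.11. Of 7 genes of phosphatidylserine exposure, all tested, PLSCR1, a scramblase family gene, was called against DMSO in RA 0.01 uM, RA 1 uM and the combination (10.2, 14.4 and 17.4 FPKM, against 4.56 FPKM in DMSO). It was higher in each, beside 4.87%, 6.5% and 9.36% of protein-coding genes. Of the 4 protease-activated receptor genes 1 could be tested among the treatments, in MC_2580 against DMSO and in the combination against MC_2580 only. It was not called in either. In LSD1 KO against WT no gene of these 4 lists passed in limma.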
